A study of Mus musculus with 12 samples.

Results

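The secreted proteins of the gut's chemical barrier described here are the C-type lectins Reg3a, Reg3b, Reg3g and Reg4, the ribonuclease Ang4, the phospholipase Pla2g2a, the lysozyme Lyz1, the intelectin Itln1, the protease Mmp7 and the flagellin-binding protein Lypd8. These 10 genes were chosen by name from the 47632 genes of each deposited table. They were measured by RNA-seq in epithelial cells from the colons of mice labelled C57/BL6. The animals labelled KO are Tfeb ΔIEC mice, homozygous for a floxed Tfeb allele and carrying Cre recombinase under the villin promoter, which is active throughout the intestinal epithelium. The animals labelled WT are Tfeb flox/flox littermates, which carry the same floxed allele and are called controls. Both genotypes were taken untreated on Day 0, at the end of dextran sulfate sodium (DSS) in the drinking water on Day 4, and after a return to plain water on Day 11. DSS is a polymer that injures the colonic epithelium. The labels give a DSS concentration of 2.5%, and the methods of the study a slightly lower one. There were 2 animals per genotype and day, 12 in all, aged 10 and 12 weeks on Day 0, 12 weeks on Day 4 and 10 weeks on Day 11.

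Antimicrobial proteins keep bacteria away from the intestinal surface. Reg3b and Reg3g bind bacterial cell walls, and their genes are known to be induced in the epithelium by microbial signals through MyD88 and by the cytokine IL-22 through STAT3. Ang4, Lyz1, Pla2g2a, Itln1 and Mmp7 are best known from Paneth cells, the antimicrobial secretory cells of the small-intestinal crypt, and Ang4 and Itln1 also from goblet cells. Reg4 marks secretory cells at the base of colonic crypts. Lypd8 is shed by the surface cells of the colon and holds back flagellated bacteria.

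For each day the authors deposited 1 value for each genotype, which pools both animals, in FPKM (fragments counted per kilobase of transcript and relative to library size, so a level per length). The values therefore have no error, no replicate check and no test here, and a change was counted where log2(FPKM + 1) differed by 4-fold or more. A gene was compared where at least 1 of the paired values reached 1 FPKM. Scaling was done within each day, between its genotypes, so each difference between days also holds any difference in scaling between the tables. The number of reads is unknown, and the values of all genes summed to between 820344 and 1473490 FPKM. Tfeb, the deleted gene, was listed at 0.901, 1.08 and 1.18 FPKM in controls on Days 0, 4 and 11, and at 0.185, 0 and 0 FPKM in Tfeb ΔIEC animals. Epithelial markers were present in every group (summed level 8282 to 14046 FPKM for 9 genes), as were 11 colonocyte markers besides Lypd8 (25222 to 32077 FPKM, most of it Car1), and 8 stromal markers together reached at most 5.87 FPKM. The tables of Days 4 and 11 were close to each other. Of the genes above 0 on both days, 1679 of 11746 had identical values in controls and 1310 of 12826 in Tfeb ΔIEC animals. None of the 10 genes was among them above 0, but their levels changed by at most 16.2% between these days, so Day 11 is not counted as an independent repeat of Day 4. The labels give separate animals for each day, and whether the tables rest in part on the same libraries could not be settled from these values.

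Of the 10 genes, 8 were above 0 in some group and all 8 reached 1 FPKM. Reg3a, a lectin of the same cluster as Reg3b on chromosome 6, and Mmp7, the protease that activates α-defensins, were listed at 0 in all 6 groups. Reg3b and Reg3g rose more than 20-fold after DSS in each genotype. The levels they reached were lower in Tfeb ΔIEC animals. Ang4 rose past 4-fold by a small margin in controls and was at 1.09 times its Day 0 level in the Tfeb ΔIEC animals of Day 4, and Pla2g2a moved in opposite directions in the genotypes. In log2(FPKM + 1), Lypd8, Reg4, Itln1 and Lyz1 did not change by 4-fold in any comparison.

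**Figure D1:**
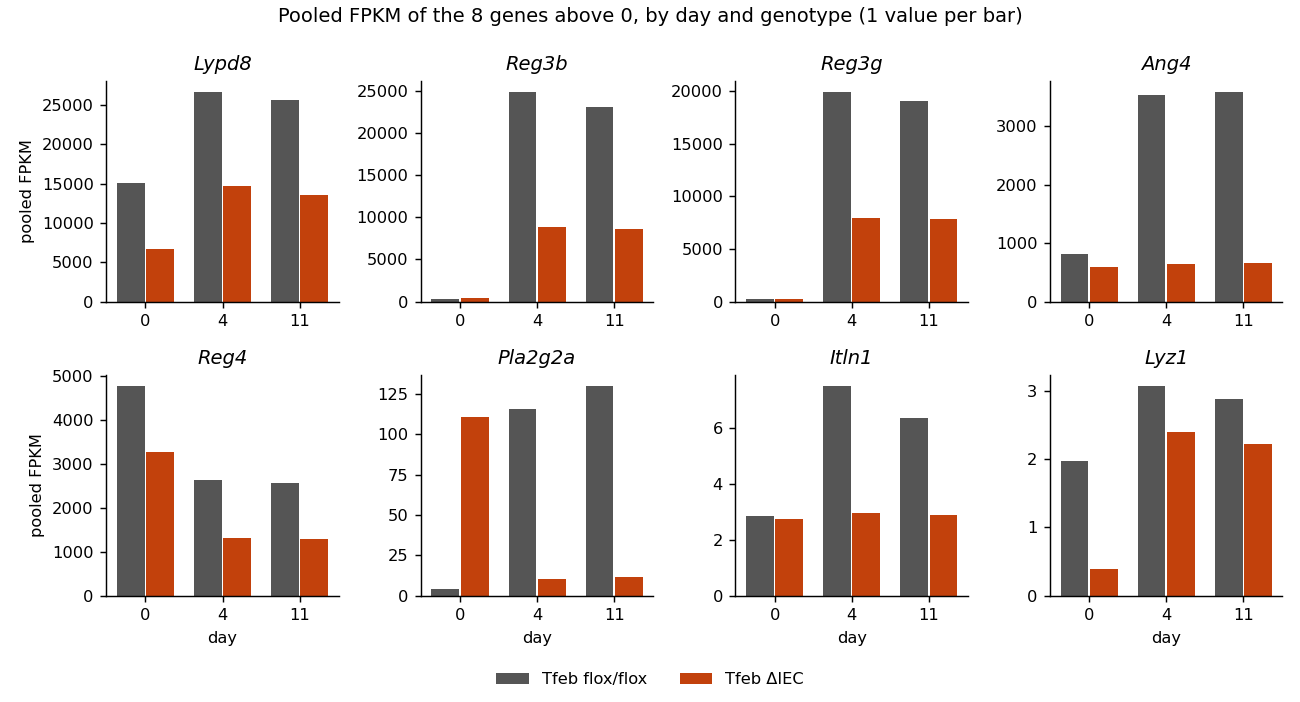
Pooled FPKM (vertical axis, linear and starting at 0, a separate scale per gene) of the 8 genes above 0 on Days 0, 4 and 11 (horizontal axis), with grey bars for Tfeb flox/flox and orange bars for Tfeb ΔIEC animals. Each bar is 1 value pooled from 2 animals and so has no error bar. Reg3b and Reg3g are near the axis on Day 0 and high on both later days in both genotypes, with the orange bars below the grey, and the Pla2g2a bars change places after Day 0.

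Reg3b (ENSMUSG00000071356.7) lies at chr6:78370657-78373466 on the plus strand of mm10, and Reg3g (ENSMUSG00000030017.2) at chr6:78466269-78468872 on the minus strand. The 178 bases before each RefSeq start site (GRCm38.p6) are printed because these genes moved together. Annotated starts of Reg3b differ: GENCODE has first exons from 78370657 to 78370706, in an alternative transcript that sets the start of the gene, and from 78370861, in its basic transcript, which lies 24 bases before the RefSeq start. The stretch shown begins after the former exon. Capitals mark TTCNNNGAA, the core that STAT proteins bind, and TATAAA, the TATA box, on either strand.
Reg3b, chr6:78370707-78370884, plus strand: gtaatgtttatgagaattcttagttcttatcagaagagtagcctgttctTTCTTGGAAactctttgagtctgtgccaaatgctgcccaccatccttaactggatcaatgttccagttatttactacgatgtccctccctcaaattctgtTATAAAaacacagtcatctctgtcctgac
Reg3g, chr6:78468875-78469052, minus strand: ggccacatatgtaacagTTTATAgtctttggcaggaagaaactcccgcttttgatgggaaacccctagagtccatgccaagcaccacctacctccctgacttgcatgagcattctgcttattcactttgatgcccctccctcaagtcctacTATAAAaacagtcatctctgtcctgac
In a global alignment 123 of 183 columns were identical (67.2%). Both sequences hold TATAAA close to the start site, ending 24 bases before it in Reg3b and 22 bases before it in Reg3g. Reg3b holds 1 TTCNNNGAA match, TTCTTGGAA, from 129 to 121 bases before the start, and Reg3g none. A match of letters is no evidence of binding.

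On Day 0, Reg3b was at 359 FPKM in controls and 427 FPKM in Tfeb ΔIEC animals. Its levels were 24898 and 8824 FPKM on Day 4 and, on Day 11, 23064 and 8567 FPKM. The untreated values were thus close to each other, and every value after DSS was far above them in both genotypes. Reg3g was at 254 and 265 FPKM on Day 0, 19968 and 7976 FPKM on Day 4, and 19079.7 and 7841 FPKM on Day 11, in the same order of genotypes. The level of Reg3b stayed between 1.09 and 1.61 times that of Reg3g in all 6 groups. Together they made up 0.0628% of the summed FPKM in controls and 0.0710% in Tfeb ΔIEC animals on Day 0. On Day 4 these shares were 3.06% and 2.05%. By level, Reg3b stood 11th of all genes in controls and 15th in Tfeb ΔIEC animals on Day 4, after 290th and 170th on Day 0. None of the 50-base sequences in the transcripts of Reg3b or Reg3g occurs in another annotated gene, so reads of that length tell them apart. In bulk samples such as these, fewer cells of a type and less RNA per cell cannot be told apart.

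The rise after DSS was separated from the genotype difference in each direction of the design. From Day 0 to Day 4, log2(FPKM + 1) of Reg3b rose by 6.11 in controls, 69.4-fold in FPKM, and by 4.37, or 20.7-fold, in Tfeb ΔIEC animals. For Reg3g the rises were 6.29 (78.7-fold) and 4.91 (30.1-fold). These rank 28th and 24th from the highest of 9617 genes compared in controls, and 26th and 18th of 9617 in Tfeb ΔIEC animals. In the background, 4.41% of all genes compared were at least 4-fold higher and 5.53% at least 4-fold lower on Day 4 in controls, and 2.00% higher and 2.31% lower in Tfeb ΔIEC animals. The median of all genes was -0.20 in both genotypes. On Day 11 the rises were 6.0 and 4.32 for Reg3b and 6.23 and 4.88 for Reg3g. There, 4.74% of all genes were higher and 5.77% lower in controls, and 2.03% and 2.32% in Tfeb ΔIEC animals.

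The genotype difference of Reg3b in log2(FPKM + 1), Tfeb ΔIEC minus Tfeb flox/flox, was 0.25 before treatment, -1.50 on Day 4 and -1.43 on Day 11. For Reg3g it was 0.06, -1.32 and -1.28. The Day 4 levels were 2.82-fold (Reg3b) and 2.50-fold (Reg3g) lower in Tfeb ΔIEC animals, which is short of 4-fold. The difference on Day 4 minus that on Day 0, from which any scaling between tables cancels, was -1.75 for Reg3b and -1.39 for Reg3g, beside a median of 0.02 over 11101 genes. In rank from the lowest these were 1037th and 1526th. Genotype differences varied with transcript length. Over the 500 genes nearest in transcript length (783 bases for Reg3b, 771 for Reg3g), the median genotype difference was -0.54 on Day 0 and -1.0 on Day 4. Less that median, Reg3b was at 0.79 on Day 0 and -0.50 on Day 4, and Reg3g at 0.60 and -0.32. With each group divided by its summed FPKM, the differences were 0.25 and 0.06 on Day 0 and -0.66 and -0.49 on Day 4. The difference on Day 4 minus that on Day 0 is thus smaller with this scaling. The median of all genes on Day 4 moved from 0.06 to 0.66. The rises after DSS depended little on either choice, from 5.53 to 6.11 for Reg3b and from 5.71 to 6.29 for Reg3g in controls, and from 4.37 to 4.61 and from 4.91 to 5.15 in Tfeb ΔIEC animals. The part of transcript length in the genotype difference was not tested.

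**Figure D2:**
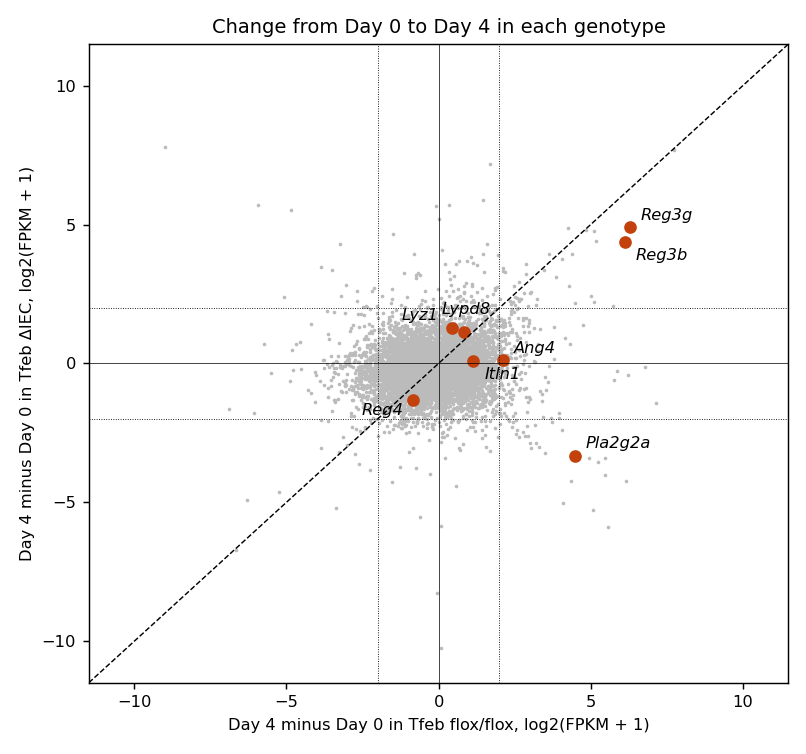
Difference in log2(FPKM + 1) between Day 4 and Day 0 in Tfeb flox/flox (horizontal axis) and Tfeb ΔIEC animals (vertical axis). Grey points are all genes with at least 1 FPKM on either day in each genotype, orange points the 8 named genes, dotted lines 4-fold and the dashed line equal change. Reg3b (6.11 and 4.37) and Reg3g (6.29 and 4.91) lie high on both axes and below the dashed line, and Pla2g2a (4.47 and -3.32) lies in the lower right.

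**Figure D3:**
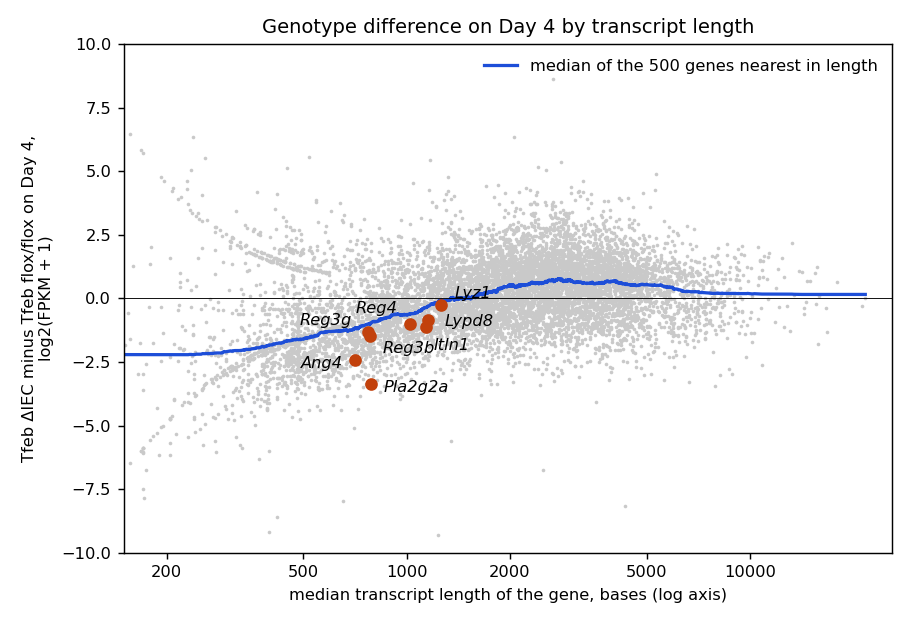
Tfeb ΔIEC minus Tfeb flox/flox in log2(FPKM + 1) on Day 4 (vertical axis) against the median transcript length of the gene in bases (horizontal log axis). Grey points are genes compared, the blue line is the median of the 500 genes nearest in length, and orange points are the 8 named genes; 42 of 9353 genes lie outside the axes. Reg3b and Reg3g lie close under the line, which is at -1.0 at their length, and Pla2g2a at -3.38 and Ang4 at -2.44 lie further below it.

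The 3 other genes with the nearest course over the 6 pooled values were Ly6c1, Ly6g and Ly6a, for Reg3b and Reg3g alike. All belong to the Ly6 family of membrane-anchored proteins. The measure was the Euclidean distance between centred log2(FPKM + 1) values among 3707 genes with at least 10 FPKM in a group, and it was 0.86, 1.05 and 1.25 from Reg3b and 1.06, 1.11 and 1.37 from Reg3g. Reg3b and Reg3g were nearer to each other, at 0.48. Ly6a was at 69.6 and 25.8 FPKM on Day 0 and 2033 and 743 FPKM on Day 4, in controls and Tfeb ΔIEC animals. The 6 values are pooled and those of Days 4 and 11 nearly repeat each other, so the likeness rests on few independent points.

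Ang4 (ENSMUSG00000060615.5, chr14:51763878-51773590, minus strand), a bactericidal ribonuclease of the angiogenin family, was at 818 FPKM in controls and 593 FPKM in Tfeb ΔIEC animals on Day 0. Its level was 3526 and 649 FPKM on Day 4, and 3590.2 and 658 FPKM on Day 11. The later control values stood apart from the other 4, which lay between 593 and 818 FPKM. From Day 0 to Day 4, log2(FPKM + 1) of Ang4 rose by 2.11 in controls (4.31-fold, rank 363 of 9617) and differed by 0.13 in Tfeb ΔIEC animals. The genotype difference was -0.46 on Day 0, -2.44 on Day 4 (5.44-fold lower in Tfeb ΔIEC animals, 600th from the lowest of 9371) and -2.45 on Day 11. Both changes of Ang4 fell short of 4-fold when the median of genes of like length was subtracted, with a Day 4 genotype difference of -1.29 and a rise of 1.54, and when groups were divided by their summed FPKM, with -1.60 and 1.52. Of the 50-base sequences in the Ang4 transcript, 95.3% occur in no other gene, and Ang5 shares the most. The sequence before its RefSeq start is shown because Ang4 and Reg3b were the only 2 of the genes with a TTCNNNGAA match, which capitals mark (TTCCCTGAA, 192 to 184 bases before the start).
Ang4, chr14:51773591-51773840, minus strand: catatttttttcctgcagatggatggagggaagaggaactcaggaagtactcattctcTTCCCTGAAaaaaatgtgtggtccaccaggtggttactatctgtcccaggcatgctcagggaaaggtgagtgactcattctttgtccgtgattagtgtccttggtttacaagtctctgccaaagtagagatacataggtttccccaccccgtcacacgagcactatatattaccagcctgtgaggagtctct
This sequence holds no TATAAA. RefSeq gave 11 promoter windows of 300 bases (250 before and 50 after the start) for 9 of the 10 genes, and none for Pla2g2a. On either strand, TTCNNNGAA occurred in 2 of the 11 windows and in 8.30% of all 32851 windows. TATAAA occurred in 3 (13.6% of all), TGANTCA, the AP-1 core, in 2 (7.81%), CACGTG, the E-box that TFEB and other helix-loop-helix factors bind, in 1 (7.15%), a window of Mmp7, and a loose form of the NF-κB site in 5 (50.8%). Motifs were searched without regard to overlap with each other.

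Pla2g2a (ENSMUSG00000058908.14, chr4:138831857-138835186, plus strand), a secreted phospholipase A2 that lyses Gram-positive bacteria, crossed over between the genotypes. On Day 0 it was at 4.27 FPKM in controls and 111 FPKM in Tfeb ΔIEC animals. The levels were 116 and 10.2 FPKM on Day 4 and, on Day 11, 130.2 and 11.9 FPKM. The Tfeb ΔIEC value was thus the higher one before DSS and the lower one after it. In log2(FPKM + 1), Pla2g2a rose by 4.47 from Day 0 to Day 4 in controls (rank 65 of 9617) and fell by 3.32 in Tfeb ΔIEC animals (41st from the lowest of 9617). The genotype difference was 4.41 on Day 0, 18th from the highest of 9993 genes compared, -3.38 on Day 4 and -3.35 on Day 11. It passed 4-fold on every day under each of the 9 alternatives tried. The Day 0 and later values come from different animals, 2 per value, and 1 animal that differed from its pair could not be told apart from a difference between groups. GENCODE lists Pla2g2a as a polymorphic pseudogene, since C57BL/6 mice carry a disrupted allele, and its locus in the tables is shared by 3 genes, among them Pla2g5.

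In all, 1 of the 8 genes compared was at least 4-fold higher in Tfeb ΔIEC animals on Day 0 (Pla2g2a) and none lower, where 2.09% of 9993 genes were higher and 3.35% lower. On Day 4, 2 were lower (Ang4 and Pla2g2a) and none higher, where 10.3% of 9371 genes were lower and 7.36% higher. With groups divided by their summed FPKM, the background on Day 4 turned to 13.6% higher and 4.77% lower, and less the median of genes of like length it was 7.59% higher and 5.31% lower. On Day 11 the same 2 genes were lower, where 10.2% of 9365 genes were lower and 7.46% higher. The median genotype difference of the 8 genes was -0.25, -1.22 and -1.14 on Days 0, 4 and 11, and that of all genes compared was 0.06, 0.06 and 0.08. On Days 0, 4 and 11 the median of the 8 genes was 0.18, -0.53 and -0.53 less the median of genes of like length, and -0.25, -0.45 and -0.35 with groups divided by their summed FPKM. All 8 values were below 0 on Days 4 and 11, except that Lyz1 was at 0.34 and 0.32 with groups divided by their summed FPKM. Against Day 0, 4 of the 8 genes were higher on Day 4 in controls (Reg3b, Reg3g, Ang4 and Pla2g2a), beside 4.41% of all genes higher and 5.53% lower, and 3 without Ang4 under either of those choices. In Tfeb ΔIEC animals 2 were higher (Reg3b and Reg3g) and 1 lower (Pla2g2a), beside 2.00% and 2.31% of all genes. The counts were the same on Day 11.

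Lypd8 (ENSMUSG00000013643.13, chr11:58379043-58390728, plus strand) had the highest level of the 10 genes in every group. It was at 15135 FPKM in controls and 6715 FPKM in Tfeb ΔIEC animals on Day 0, 26739.8 and 14731 FPKM on Day 4, and 25629 and 13606 FPKM on Day 11. The Tfeb ΔIEC value was the lower on each day, by 2.25-fold on Day 0 and 1.82-fold on Day 4, and both genotypes were at higher levels after DSS. In log2(FPKM + 1) the genotype difference was -1.17, -0.86 and -0.91 on Days 0, 4 and 11. With groups divided by their summed FPKM it was -1.17, -0.02 and -0.08, so the lower level in Tfeb ΔIEC animals after DSS depends on the scaling. The difference from Day 0 to Day 4 was 0.82 in controls and 1.13 in Tfeb ΔIEC animals.

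Reg4 (ENSMUSG00000027876.4, chr3:98222156-98236748, plus strand) was at its highest in the untreated groups. It was at 4775 and 3258 FPKM on Day 0, 2639.7 and 1302 FPKM on Day 4, and 2565 and 1286 FPKM on Day 11, in controls and Tfeb ΔIEC animals. Levels after DSS were 1.81-fold lower in controls and 2.50-fold lower in Tfeb ΔIEC animals on Day 4, where the other Reg genes above 0 were higher. The genotype difference in log2(FPKM + 1) was -0.55, -1.02 and -1.0 on Days 0, 4 and 11. With groups divided by their summed FPKM, the Day 4 genotype difference was -0.18, and the difference from Day 0 to Day 4 was -1.44 in controls and -1.08 in Tfeb ΔIEC animals, which turns the order of the genotypes. By level, the order in controls on Day 0 was Lypd8, Reg4, Ang4, Reg3b and Reg3g, and on Day 4 it was Lypd8, Reg3b, Reg3g, Ang4 and Reg4. Without a spread between animals, neighbours in these orders such as Lypd8 and Reg3b on Day 4 cannot be said to differ.

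The remaining Paneth cell genes above 0 were at low levels. Itln1 (ENSMUSG00000038209.12), which binds microbial sugars, was at 2.86 and 2.76 FPKM on Day 0, 7.51 and 2.95 FPKM on Day 4, and 6.34 and 2.88 FPKM on Day 11. Only the later control values stood above the other 4, and the largest difference was 1.14 in log2(FPKM + 1). Lyz1 (ENSMUSG00000069515.5) was at 1.97 and 0.385 FPKM on Day 0, 3.07 and 2.39 FPKM on Day 4, and 2.88 and 2.22 FPKM on Day 11. Its ratio in FPKM alone was 6.21 between Days 4 and 0 in Tfeb ΔIEC animals, which came to 1.29 in log2(FPKM + 1) at these low levels. Of the 50-base sequences of Lyz1, 83.9% occur in no other gene and 195 are shared with Lyz2, its copy in macrophages, so its low values are uncertain.

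Markers of secretory cells differed between the genotypes too, not all in 1 direction. Of 12 other Paneth cell markers, 9 were compared on Day 4, and all 9 were at least 4-fold lower in Tfeb ΔIEC animals, where 10.3% of all genes were. Of these, 5 (Gm15284, Defa26, Defa25, Defa21 and Defa5) were listed at 0 in Tfeb ΔIEC animals. They were compared only through their level in controls, so they had to be lower. On Day 0, 4 of the 12 could be compared, and 3 were at least 4-fold lower in Tfeb ΔIEC animals, where 3.35% of all genes were. Those 3 were at 0 there, so they had to be lower too. The counts and the Day 4 median of -6.01 are a description only. Most of the 12 markers are α-defensins. Their summed level was 83.1 and 25.2 FPKM on Day 0 and 2789.9 and 24.6 FPKM on Day 4, in controls and Tfeb ΔIEC animals. Defa24 had the highest level, at 29.6 and 0 FPKM on Day 0 and 1609.7 and 3.18 FPKM on Day 4. Of the 12 goblet cell markers, 8 were below and 4 above 0 on Day 4, and 5 were at least 4-fold lower and none higher, beside the same 10.3% and 7.36% of all genes, with a median of -1.78. Spink4, the most abundant of them, was at 17489.8 and 9475 FPKM on Day 0 and 71372 and 6468 FPKM on Day 4, and Tff3 had the largest difference, -3.73. The 4 above 0, named after their values were seen, were the mucin Muc2 (1.55, at 645 and 1894 FPKM), Clca1 (1.59, at 432 and 1298 FPKM), Atoh1 (0.91) and Spdef (0.24). On Day 11, 5 of the 12 were at least 4-fold lower and 2, Muc2 (2.29) and Clca1 (2.07), higher in Tfeb ΔIEC animals, beside 10.2% and 7.46% of all genes. Of 9 epithelial and 11 colonocyte markers, 3 of each were at least 4-fold higher in Tfeb ΔIEC animals on Day 4 and none and 1 (Saa1) lower, beside 7.36% and 10.3% of all genes, with medians of 0.24 and 0.20. Saa1, which is also counted among the defence genes below, and the higher ones were named after their values were seen. The higher ones were Krt20 (3.19), Vil1 (2.83) and Cdh1 (2.70), and Slc37a2 (3.11), Slc26a3 (2.99) and Cyp2c55 (2.90). Markers of immune cells summed to 55.1 FPKM in controls and 25.9 FPKM in Tfeb ΔIEC animals on Day 0. Cd74 made up 34.7 and 18.8 FPKM of this. On Day 4 the order was the opposite, at 31.3 and 189.6 FPKM, of which Cd74 made up 20.5 and 165 FPKM. Their defining gene Ptprc was at 0.362 and 0.79 FPKM, and S100a9 and Il22 were listed at 0 throughout. The part of cell composition in the values of Ang4, Reg3b and Reg3g was not tested. Of 14 markers of small-intestinal enterocytes, 4 (Lct, Apoa4, Apoc3 and Fabp1) were listed at 0 in every group and 10 were above 0 in some group. Their summed level was 1941 and 924 FPKM on Day 0 and 886 and 829 FPKM on Day 4, most of it Fabp2, at 1882 and 891 FPKM and then 852 and 799 FPKM. Fabp6 had the largest Day 4 difference, -2.77, at 24.0 and 2.65 FPKM. Of 11 pancreatic acinar markers only Cela1 was above 0.

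**Figure D4:**
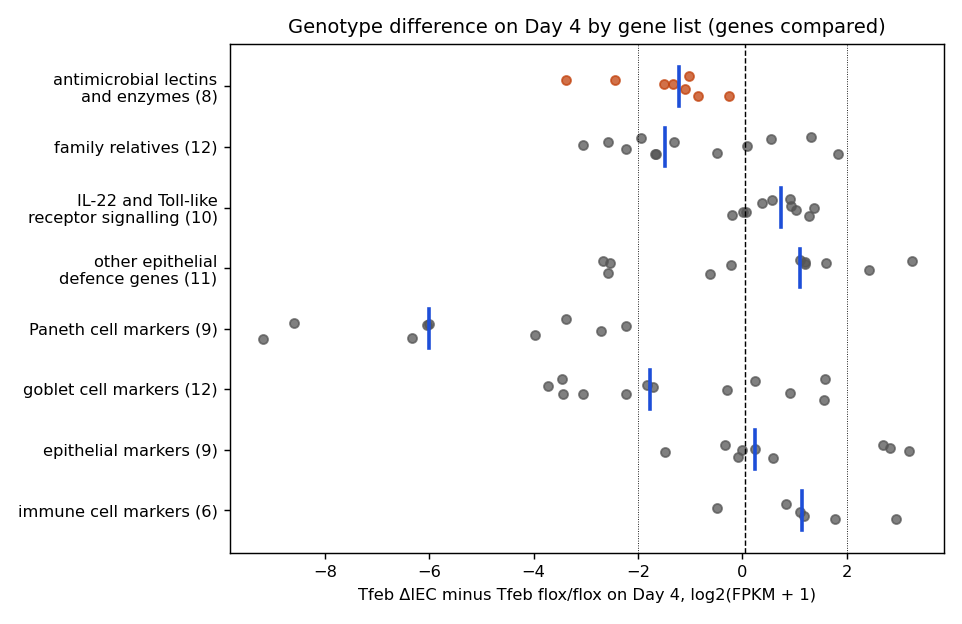
Tfeb ΔIEC minus Tfeb flox/flox in log2(FPKM + 1) on Day 4 (horizontal axis) for the 8 genes compared (orange) and for other gene lists (grey), 1 point per gene, with the number of genes compared in brackets. Blue bars are list medians, the dashed line the median of all genes (0.06) and dotted lines 4-fold. The 8 genes have a median of -1.22. Medians of other lists include 0.75 (signalling genes), -1.48 (family relatives), -1.78 (goblet cell markers) and -6.01 (Paneth cell markers). Some listed genes were compared through 1 genotype only, so their directions were fixed and these medians are descriptions only.

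A list of 16 related genes held other genes of the Reg, ribonuclease, lysozyme and phospholipase families and, from outside the families of the 10 genes, the secreted lectin Zg16 and the resistin-like Retnlb and Retnla. Of these, 12 were compared on Day 4, and 3 (Zg16, Retnlb and Ang2) were at least 4-fold lower in Tfeb ΔIEC animals and none higher, with background shares of 10.3% and 7.36%. The median was -1.48, which is a description only. Zg16 and Retnlb are counted among the goblet cell markers too, and Ang2, at 4.94 and 0 FPKM, was compared only through its level in controls and had to be lower. On Day 0 Ang2 was at 0 and 4.22 FPKM, in the opposite order. Other genes, named after their values were seen, had fixed directions on Day 4 too. Pla2g12a (2.87 and 0 FPKM) and Ang6 (2.21 and 0 FPKM) were compared only through controls. Ang5 (0 and 1.48 FPKM) and Pla2g5 (0.643 and 1.39 FPKM) were compared only through Tfeb ΔIEC animals. The lectin Zg16 had the highest level, at 34794 and 7393 FPKM on Day 4, and Retnlb, a goblet cell protein that kills bacteria, the largest difference, -3.05. Reg1, Reg2 and Reg3d were listed at 0 in all groups, so of the Reg family only Reg3b, Reg3g and Reg4 were above 0. Among the receptors, adaptors, kinases, transcription factors and inhibitors of IL-22 and Toll-like receptor signalling, none of the 10 genes compared on Day 4 differed by 4-fold between genotypes, beside 7.36% of all genes higher and 10.3% lower, and the median was 0.75. At those shares a count of 0 among so few genes is no result about the list. Ticam1 (0.945 and 2.68 FPKM) and Il17ra (0.123 and 1.15 FPKM), named after their values were seen, were compared only through Tfeb ΔIEC animals. They had to be higher, so the median is a description only. Stat3 had the highest mean level over the 6 groups and was at 7.74 and 20.3 FPKM on Day 4, and Myd88 had the largest Day 4 difference, 1.36. On Day 0, 1 of 13 was at least 4-fold lower in Tfeb ΔIEC animals, where 3.35% of all genes were, which is likewise no result about the list. This was Socs3, named after its values were seen, at 10.2 and 0 FPKM, so it was compared only through its level in controls and had to be lower. Of 21 other epithelial defence genes that inflammation or IL-22 is known to induce, 11 were compared between genotypes on Day 4, of which 2 were at least 4-fold higher and 3 lower in Tfeb ΔIEC animals, beside 7.36% and 10.3% of all genes. Among these, Saa3 (0 and 4.33 FPKM) and Slpi (5.35 and 0 FPKM), named after their values were seen, were each compared only through the genotype with the higher level, so their directions were fixed. S100a8 (0 and 1.15 FPKM) and Duox2 (0.709 and 2.90 FPKM), named likewise, were compared only through Tfeb ΔIEC animals and had to be higher. The list median of 1.1 is the value of S100a8, so it is a description only. The peptidoglycan-binding protein Pglyrp1 was at 432 and 219 FPKM on Day 0 and 2606 and 434 FPKM on Day 4. Fut2, a fucosyltransferase, had the largest difference, 3.25, at 3.78 and 44.4 FPKM. From Day 0 to Day 4, 2 of 10 were at least 4-fold higher in controls, where 4.41% of all genes were, and none of 12 in Tfeb ΔIEC animals, where 2.00% were. At that share none of 12 is no result about the list. Lcn2, Cxcl1, Cxcl5, Ltf, Camp and S100a9 were listed at 0 in all 6 groups. By contrast, 10 genes that every cell uses, Actb among them, were above 0 in each. Genes of this kind differed between genotypes on Day 4, in both directions. Those given here, besides Actb, were named after their values were seen. Rps18 was at 2822 FPKM in controls and 380 FPKM in Tfeb ΔIEC animals, and Ppia at 1178 and 339 FPKM. Hprt (8.63 and 139 FPKM) and Eef1a1 (666 and 2524 FPKM) had the opposite order. Actb (5571 and 4973 FPKM) and Gapdh (132 and 116 FPKM) differed less. Rps18 and Hprt thus passed 4-fold, which Reg3b and Reg3g did not.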

How the data were processed

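Epithelial cells were taken from the colons of 12 mice, 2 per genotype and day. The authors prepared full-length cDNA with a variation of SmartSeq2, sequenced paired ends on a MiSeq machine and mapped the reads to mm10 with TopHat2 (2.0.14, per the submitters' processing notes) and Bowtie. Per the file headers, the 3 deposited tables, 1 per day, hold 1 FPKM value per gene and genotype, which the authors made from both animals with Cuffdiff (2.1.1). The tables also hold the authors' fold changes, test statistics, p-values and q-values, which were not used. Genotype and day of each animal were taken from the sample labels.

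The genes were matched by symbol. Differences of log2(FPKM + 1) were computed between genotypes on each day and between days in each genotype, among genes with at least 1 FPKM in either value, and 4-fold or more was counted. With 1 pooled value per group no test was possible. The depth is unknown. Transcript lengths, positions and shared 50-base sequences come from GENCODE M21, on the same assembly, with 47218 of 47632 genes matched, and promoter sequences from RefSeq (GRCm38.p6). Upstream sequences were aligned globally with Biopython 1.88, with 1 for a match and -1 for a mismatch. All 10 genes are named. Of other lists, at most the 2 genes of highest mean level and the 2 of largest difference on Day 4 are named, beside genes listed at 0, defining markers, and genes said to be named afterwards. The genes and lists were chosen with earlier results of these data known. The 9 alternatives were other pseudocounts, folds, filters and scalings. Python 3.11.15, numpy 2.4.6, pandas 2.3.3 and matplotlib 3.10.9 were used, and the calculations were tested on simulated data.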

Additional observations from a re-analysis of the deposited data

Results flagged for a closer look

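Pla2g2a changed by more than 4-fold in opposite directions in the genotypes. The change in log2(FPKM + 1) in Tfeb ΔIEC minus that in Tfeb flox/flox animals was -7.79 from Day 0 to Day 4, 33rd from the lowest of 11101 genes, and -7.76 from Day 0 to Day 11. This difference was not tested, since each value pools 2 animals.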

How the results depend on the processing

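No paired analysis was possible because each genotype has 1 pooled value per day, and no animal could be left out for the same reason. Counts of genes past the threshold moved by over 1.5 times in these cases. With a pseudocount of 0.1 FPKM, 2 genes differed between genotypes on Day 0 in place of 1. At 2-fold, the genotype counts on Days 0, 4 and 11 were 3, 6 and 4 (in place of 1, 2 and 2), and 6 genes in place of 3 changed in Tfeb ΔIEC animals on Days 4 and 11. At 8-fold, after division by the summed FPKM, and after subtraction of the median of genes near in length, 1 gene in place of 2 differed between genotypes on Days 4 and 11. In each of these, Ang4 no longer passed and Pla2g2a did. No gene counted at 4-fold changed direction under any alternative. Of 494 further values of single genes under the alternatives, 464 stayed on their side of the threshold, 18 passed it in addition, and 12, all of Ang4, no longer passed. With pooled values and unknown depth, variation between animals could not be measured.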
